A study of Arabidopsis thaliana with 10 samples.

Results

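In Arabidopsis thaliana nearly every protein of the cytosolic ribosome is encoded by several paralogous nuclear genes. The genes described here encode those proteins: the L and P series of the large, 60S subunit and the S series of the small, 40S subunit, without the ribosomal proteins of plastids and mitochondria. A table of 230 such genes (136 for the 60S and 94 for the 40S subunit) was set against the array annotation, and 131 had a probe set that listed 1 gene. Of these, 117 probe sets had a mean log2(signal + 16) over all 10 arrays at or above the 40th percentile of probe sets and are the members: 75 for the 60S and 42 for the 40S subunit, among 13648 probe sets tested and 22746 on the array besides its controls. The members cover 56 protein families, 33 of the 60S and 23 of the 40S subunit. The other 14 listed genes lay below the threshold, with mean signals of 1.03 to 26.4, and 99 genes had no probe set that listed them alone. A further 26 probe sets that list several genes, at least 1 of them ribosomal, were left out. The member just inside the threshold was AT3G28500, which encodes a P2 protein (mean 5.41 on the log2 scale), and the gene just outside was AT2G16360, which encodes an S25 protein (5.38). Families were assigned from the established Arabidopsis nomenclature, since the annotation used here gives nearly all members only a locus tag; the exception is AT2G27530, listed as PGY1.

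Cytosolic ribosomes make nearly all proteins of the cell, and dividing tissue such as the shoot apex, where leaves begin, is known for a high demand for them. The 2 subunits are assembled in the nucleolus from ribosomal RNA and proteins that are imported from the cytosol, the small subunit reads the messenger RNA and the large subunit joins the amino acids. In Arabidopsis, mutants of several of these genes are known for narrow, pointed first leaves and for enhanced defects in leaf polarity.

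The series measured RNA of vegetative apices from plants with altered activity of the CIN-TCP transcription factors, which limit growth of the leaf blade, on 2 arrays in each of 5 groups. Col apices, of the unaltered Col accession, were taken at 14 DAS, the age code of the labels. Apices labelled miR-3TCP (35S:miR-3TCP), which express an artificial microRNA directed at the genes TCP5, TCP13 and TCP17, were also taken at 14 DAS, in Col. Apices labelled miR319b (35S:319b), which overexpress the plant's own microRNA that targets TCP4 and TCP2, TCP3, TCP10 and TCP24, were taken at 17 DAS, in Col. Apices labelled octa, here taken as the combination of both microRNAs in the design text, were taken at 18 DAS, in Col. BLS>>TCP4 apices, which express TCP4 from the leaf-specific BLS promoter, were taken at 14 DAS in the Ler accession. Age therefore cannot be told apart from genotype for miR319b and octa, nor accession from transgene for BLS>>TCP4. The 35S promoter is active in most tissues, the BLS promoter in leaves, and nothing in the labels says how many plants or lines were pooled or that samples of a group were grown separately, so the p-values cover no more than the differences among the samples at hand, which could be technical. In whole apices, fewer cells of a type and less RNA per cell cannot be told apart.

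Each deposited value is a linear intensity, and the median over probe sets was 50 on every array. Changes are differences of log2(signal + 16) with the standard error of 1 linear model over all arrays (limma), and a probe set is called at an adjusted p under 0.05 (Benjamini-Hochberg over all 13648 probe sets tested). With 2 arrays against 2, an exact permutation test cannot give a p below 0.333, so counts of members whose arrays do not overlap are descriptions. Member signals were high: 102 of the 117 lay in the brightest 2730 of the probe sets tested. Their median mean signal was 1228 and the range 27.3 to 3709. A scaling can move bright probe sets as a block, so values are given both as deposited and after quantile normalization, which forces the 10 arrays to 1 common distribution. The 2 BLS>>TCP4 arrays differed more from each other over the members (standard deviation of the log2 difference 0.31) than the pairs of the other groups (0.16 to 0.19). Of the marker genes for the sampled tissue, 2 of 10 proliferation genes, 3 of 12 leaf and photosynthesis genes and 2 of 6 root genes could be tested, and none of 7 floral genes had a listed probe set.

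Ribosomal protein transcripts were, at the median, highest relative to Col in miR319b and BLS>>TCP4 apices, and close to Col in miR-3TCP and octa apices. In the Col arrays the member median was -0.02 and 0.02 around their mean. It was 0.10 and 0.03 in the miR-3TCP arrays, 0.22 and 0.39 in the miR319b arrays, 0.02 and -0.06 in the octa arrays and 0.48 and 0.39 in the BLS>>TCP4 arrays. The 4 arrays of miR319b and BLS>>TCP4 thus lay above all others, while the octa pair overlapped the Col pair. Quantile normalization kept both miR319b arrays above Col, at 0.19 and 0.29. The same scaling raised the octa arrays to 0.17 and 0.08, above both Col arrays at 0.01 and -0.01, and brought the BLS>>TCP4 arrays to -0.0019 and -0.14. The direction in miR319b was thus the same under both scalings, and that in octa and BLS>>TCP4 was not. As a share of all signal on an array, which a common scale factor does not touch, the members held 4.17% and 4.23% in Col, 4.49% and 4.31% for miR-3TCP, 4.98% and 5.39% for miR319b, 4.56% and 4.37% for octa, and 4.91% and 4.52% for BLS>>TCP4. All 8 arrays of the altered groups had a larger share than both Col arrays, and the miR319b arrays had the 2 largest shares.

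**Figure D1:**
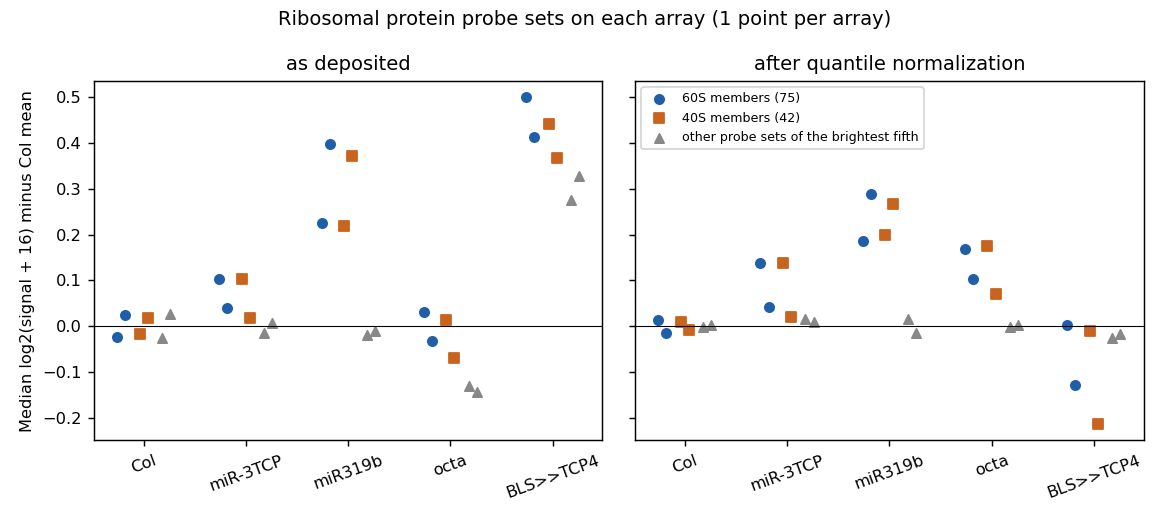
Median log2(signal + 16) of the 75 60S and 42 40S probe sets on each of the 10 arrays, relative to the mean of the 2 Col arrays, as deposited (left) and after quantile normalization (right); grey triangles are the 2628 other probe sets among the brightest 2730. In miR319b both subunits lie above Col in both panels and above the grey points, while in BLS>>TCP4 the grey points rise with them at left and all lie near or below 0 at right.

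In miR319b apices, the signals of nearly all ribosomal protein genes of both subunits lay above Col, by a small amount. Of the 117 members, 115 had a positive change, where 48.6% of all probe sets tested did, and the median was 0.30 on the log2 scale against -0.01 over all probe sets tested and -0.02 over the other bright ones. Changes ran from -0.01 to 0.97. The test called 8 members, all higher, where 3.8% of all probe sets were called, 1.16% higher and 2.64% lower. For 88 members both miR319b arrays lay above both Col arrays, where 26.5% of all probe sets did, and for 0 below, where 30.3% did. At an unadjusted p under 0.05 stood 60 members, where 22.4% of all probe sets did.

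The called members came from 7 families. AT1G01100 encodes P1, an acidic protein of the stalk of the large subunit that recruits elongation factors. Its signal was 2119 and 2309 on the Col arrays, 2331 and 2304 for miR-3TCP, 3002 and 3254 for miR319b, 2111 and 2099 for octa and 3539 and 3603 for BLS>>TCP4. Both miR319b arrays stood clear of the first 2 groups and of octa, and the change against Col was 0.50 ± 0.09 (adjusted p = 0.0231). A pair of L37 genes, for a zinc-binding protein of the large subunit, also rose: AT3G16080 from 1178 and 1228 in Col to 1590.4 and 1952 in miR319b, a change of 0.55 ± 0.12 (adjusted p = 0.0393). Its miR-3TCP arrays, at 1426 and 1415, lay between those of Col and miR319b, and its octa arrays, at 1161 and 1066, lay below both Col arrays. The second, AT1G52300, went from 2419 and 2502 to 3144 and 3560.3 (0.44 ± 0.10, adjusted p = 0.0393), again without overlap.

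Further called rises were in L31, a protein at the mouth of the tunnel through which the new chain leaves, and in L14, both of the large subunit. The L31 gene AT5G56710 measured 1254 and 1251 in Col and 1622 and 1975 in miR319b (0.51 ± 0.11, adjusted p = 0.0419). AT4G27090, the L14 gene, measured 1679.9 and 1989 in Col and 2604 and 2634 in miR319b (0.52 ± 0.11, adjusted p = 0.0390). Neither gene's arrays overlapped between the groups. The L13a gene AT3G24830 rose by 0.44 ± 0.10 (adjusted p = 0.0439) and the L18a gene AT3G14600 by 0.43 ± 0.10 (adjusted p = 0.0497). The 1 called member of the small subunit was AT1G15930, which encodes S12, a protein of the subunit's beak: 2141 and 2286 in Col and 3002 and 2958 in miR319b (0.43 ± 0.09, adjusted p = 0.0400).

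Larger changes than these stood in dimmer members that the test did not call. The third L37 gene, AT1G15250, measured 134 and 102 in Col and 203 and 294 in miR319b, a difference of 0.97 ± 0.26 (adjusted p = 0.0701). AT3G02190 encodes L39, which lines the exit tunnel, and measured 146 and 192 in Col and 256 and 389.5 in miR319b (0.86 ± 0.23, adjusted p = 0.0667). Both pairs of miR319b arrays lay above Col without overlap but differed widely from each other.

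After quantile normalization 110 of the 117 changes were still positive, where 51.7% of all probe sets were, the median was 0.23 and 4 members were called, all higher, where 1.49% of all probe sets were. Those were AT3G16080 and AT5G56710, which were also called as deposited, with AT3G02190 (0.93, adjusted p = 0.0475) and the L10a gene AT1G08360 (0.40, adjusted p = 0.0464); AT1G08360 is named after its values were seen. Here and below, shares of all probe sets called with arrays left out are not given. Such counts therefore cannot tell a change of the members from one of the whole array. The count of calls changed with the arrays in the model. It was 0 without either Col or either miR319b array, 1 without either miR-3TCP or either octa array, and 25 without either BLS>>TCP4 array or without both of them.

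**Figure D2:**
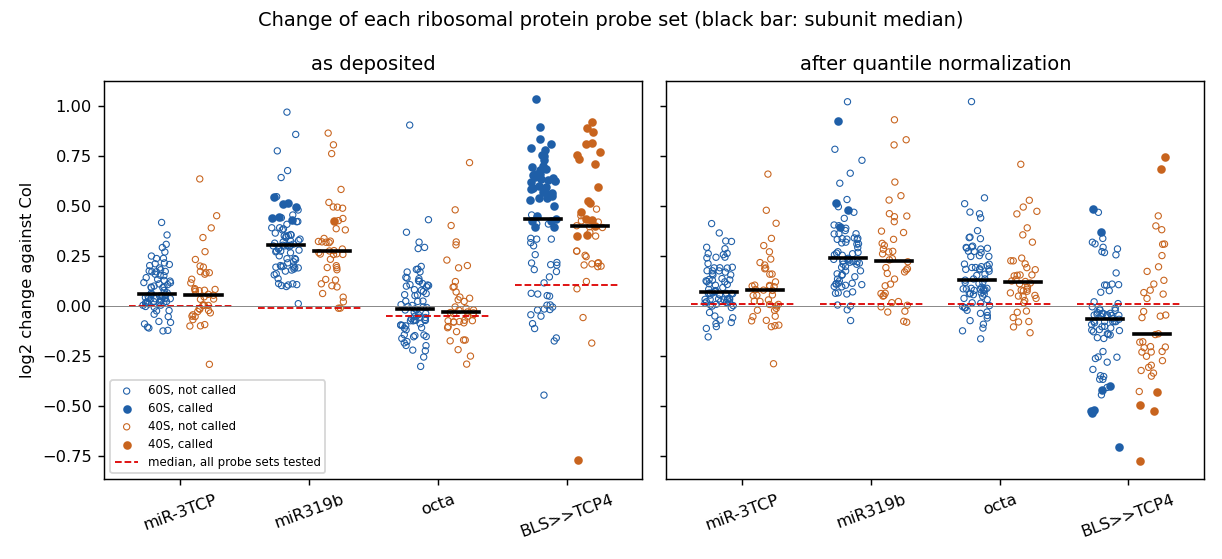
Log2 change against Col of each of the 117 ribosomal protein probe sets in the 4 altered groups, as deposited (left) and after quantile normalization (right); filled points were called by limma (adjusted p under 0.05), black bars are subunit medians and red dashes the median of all 13648 probe sets tested. The miR319b points lie almost wholly above 0 in both panels, whereas those of BLS>>TCP4 move from mostly above 0 to mostly below it.

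With the artificial microRNA alone, the member median was close to that of Col. The median change was 0.06, 91 of 117 members had a positive change where 50.9% of all probe sets tested did, and limma called 0 members in either direction, where 0.00733% of all probe sets were called. An unadjusted p under 0.05 was found for 3 members (2.91% of all probe sets), and quantile normalization also gave 0 calls, with 9 at that p (3.13% of all). For 40 members both arrays lay above both Col arrays, where 18.7% of all probe sets did, and for 9 below, where 19.3% did. After quantile normalization these were 43 above (20.4% of all probe sets) and 6 below (18%). The largest difference without overlap was in AT3G57490, which encodes S2, a protein at the entry of the messenger RNA channel. It measured 176 and 181 on the Col arrays, 303 and 269 for miR-3TCP, 285 and 399 for miR319b, 226 and 256 for octa and 211 and 112 for BLS>>TCP4. All 6 arrays with a microRNA lay above both Col arrays, and the difference of miR-3TCP from Col was 0.64 ± 0.25, not called. Next came AT5G09510, for the S15 protein of the small subunit's head (0.45 ± 0.21), and AT3G55170, for the large-subunit protein L35 (0.42 ± 0.15), neither of them called.

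In octa apices, taken to carry both microRNAs, members lay on both sides of Col as deposited. The median change was -0.02 where that of all probe sets tested was -0.05 and that of the other bright ones -0.14, 50 of 117 changes were positive (41% of all probe sets), and limma called 0 members, where 1.8% of all probe sets were called; 4 had an unadjusted p under 0.05, where 14.7% of all did. Arrays without overlap put 20 members higher and 32 lower than Col, against 17.5% and 32% of all probe sets. With quantile normalization the values moved upwards: the median was 0.12, 97 changes were positive where 52.1% of all were, 65 members lay above Col without overlap where 25% of all did, and limma still called 0, with 18 at an unadjusted p under 0.05, again beside 14.7% of all. Without both BLS>>TCP4 arrays, or without either, 2 members were called; without both they were AT1G15250 and AT5G39850, each higher.

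The 3 largest octa differences from Col without overlap were in dim members of the S9, S8 and L37 families. AT1G15250, the dim L37 gene, measured 265 and 205 in octa against 134 and 102 in Col (0.90 ± 0.26, adjusted p = 0.125), close to the miR319b arrays given above. AT5G39850 encodes S9, a protein at the messenger entry, and measured 29.2 and 30.4 on the Col arrays, 39.1 and 31.4 for miR-3TCP, 58.0 and 70.6 for miR319b, 63.8 and 54.9 for octa and 78.1 and 47.4 for BLS>>TCP4. Every array of miR319b, octa and BLS>>TCP4 exceeded every array of Col and miR-3TCP, and the octa difference was 0.72 ± 0.20 (adjusted p = 0.102). An S8 gene, AT5G59240, followed with 0.48 ± 0.18 (adjusted p = 0.259).

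Set directly against each other, octa arrays lay below miR319b arrays for most members, although none was called; the groups differ in the artificial microRNA and in age, at 18 and 17 DAS. Of 117 differences 113 were negative and 4 positive, where 43.6% of all probe sets tested were positive, and the median was -0.33 against -0.04 over all and -0.11 over the other bright ones. For 89 members both octa arrays lay below both miR319b arrays, where 27.9% of all probe sets did, and for 2 above, where 17.4% did. Limma called 0 members and 0% of all probe sets in this comparison, and 62 members had an unadjusted p under 0.05, where 9.83% of all did. The largest differences were in AT3G02190 (L39, 209 and 157 in octa, -0.75 ± 0.23, adjusted p = 0.378), in AT3G16080 (L37, -0.66 ± 0.12, adjusted p = 0.222) and in the S10 gene AT4G25740, with 1276 and 1553 in miR319b and 939.6 and 839 in octa (-0.66 ± 0.18, adjusted p = 0.359). None of the 3 overlapped between the groups. After quantile normalization the median difference shrank to -0.10, with 23 of 117 positive and 49 lower without overlap, where 21.8% of all probe sets were.

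The other comparisons among the microRNA groups repeat arrays already used. Between octa and miR-3TCP the median difference was -0.08 (0.04 after quantile normalization), and limma called 0 members, where 2.42% of all probe sets were called (2.11% lower), with 5 at an unadjusted p under 0.05 (13.2% of all). The 3 largest differences without overlap there, all positive, were in AT5G39850 (0.56), AT1G15250 (0.55) and the S16 gene AT3G04230 (0.49). Between miR319b and miR-3TCP the median was 0.23 with 107 positive, where 49.2% of all probe sets were. For 79 members both miR319b arrays lay above both miR-3TCP arrays (27.4% of all probe sets), and for 1 below (29.4%). Limma called 4 members higher, where 3.72% of all probe sets were called, 1.06% higher and 2.67% lower. These were AT1G52300 (0.48, adjusted p = 0.0327), AT1G01100 (0.43, adjusted p = 0.0352), AT3G24830 (0.43, adjusted p = 0.0488) and the S9 gene AT5G15200 (0.39, adjusted p = 0.0388). None of these 4 was called after quantile normalization (0 members, 26 at an unadjusted p under 0.05 where 20.6% of all were), and without any 1 Col, miR-3TCP, miR319b or octa array there were 0 calls, against 14 and 15 without the first and the second BLS>>TCP4 array.

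BLS>>TCP4 apices had, as deposited, the largest median difference from Col of the 4 altered groups. The median was 0.42, 103 of 117 changes were positive where 59.6% of all probe sets were, and limma called 58 members higher and 1 lower, where 17.3% of all probe sets were called higher and 8.61% lower. For 85 members both arrays lay above both Col arrays (38.1% of all probe sets) and for 4 below (21.9%). The other bright probe sets had a median of 0.29, with 1915 of 2628 changes positive, and all probe sets tested had one of 0.10. Of the photosynthesis markers 3 of 3 tested also rose, and their summed signal was 16105 and 15555 in BLS>>TCP4 against 7434 and 7796 in Col; its part in the result was not tested. After quantile normalization none of the 3 was called and their median was 0.18, the member median was -0.08, only 36 of 117 changes were positive where 51.3% of all were, and 4 members were called higher (8.9% of all probe sets) and 10 lower (9.68%). The direction for most members thus turned on the scaling, and the accession differs as well. As deposited the count of calls was 30 without Col replicate 1 and at most 67 with another array left out.

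Among the members that rose most as deposited, AT2G27710, a gene for the stalk protein P2, measured 1669 and 1722 in Col and 3329 and 3654 in BLS>>TCP4, with 2143 and 2318 in miR319b. Both BLS>>TCP4 arrays lay above every other array, the change against Col was 1.03 ± 0.10 (adjusted p = 0.000159), and it was still called after quantile normalization (0.37, adjusted p = 0.0191). The 9 next rises were of 0.79 to 0.92. They were in AT5G47930 (S27, a zinc-binding protein of the small subunit), AT1G77940 (L30, whose yeast counterpart binds its own transcript), AT5G09510 (S15), AT3G04840 (S3a), AT3G60245 (L37a, another zinc-binding protein), AT3G47370 (S20), AT5G56710 (L31), AT5G52650 (S10) and AT3G44590 (P2). Of these only AT5G09510 was also called after quantile normalization. AT5G09510 measured 257 and 235 in Col, 387 and 472 in miR319b and 577 and 380.4 in BLS>>TCP4, a rise of 0.89 ± 0.21 (adjusted p = 0.0130) as deposited and of 0.69 (adjusted p = 0.0469) after quantile normalization.

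The 1 member called lower was AT1G23410, which encodes S27a, a small-subunit protein made as a fusion with ubiquitin. Its signal was 71.0 and 84.7 on the Col arrays, 71.3 and 71.6 for miR-3TCP, 83.7 and 110.3 for miR319b, 88.9 and 79.7 for octa and 44.1 and 34.3 for BLS>>TCP4. Both BLS>>TCP4 arrays lay below all 8 others, with a change of -0.77 ± 0.16 (adjusted p = 0.00800) that quantile normalization left at -0.77 (adjusted p = 0.0119).

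In BLS>>TCP4, 6 members were called against Col under both scalings, 5 of them in the same direction. Of all probe sets, 25.9% were called as deposited and 18.6% after quantile normalization. The share of all probe sets called under both was not worked out, so the count of 6 is a description. These 5 were AT1G23410, AT2G27710, AT5G09510, the S9 gene AT5G39850 (0.75 ± 0.20 as deposited, adjusted p = 0.0194) and AT2G40010, a gene for the stalk base protein P0 (0.57 ± 0.15, adjusted p = 0.0195). The sixth, the other S9 gene AT5G15200, changed sign. It measured 3150.2 and 3173 in Col and 4423 and 4122 in BLS>>TCP4, a rise of 0.43 ± 0.08 (adjusted p = 0.00518) as deposited and a fall to -0.43 (adjusted p = 0.00609) after quantile normalization.

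**Figure D3:**
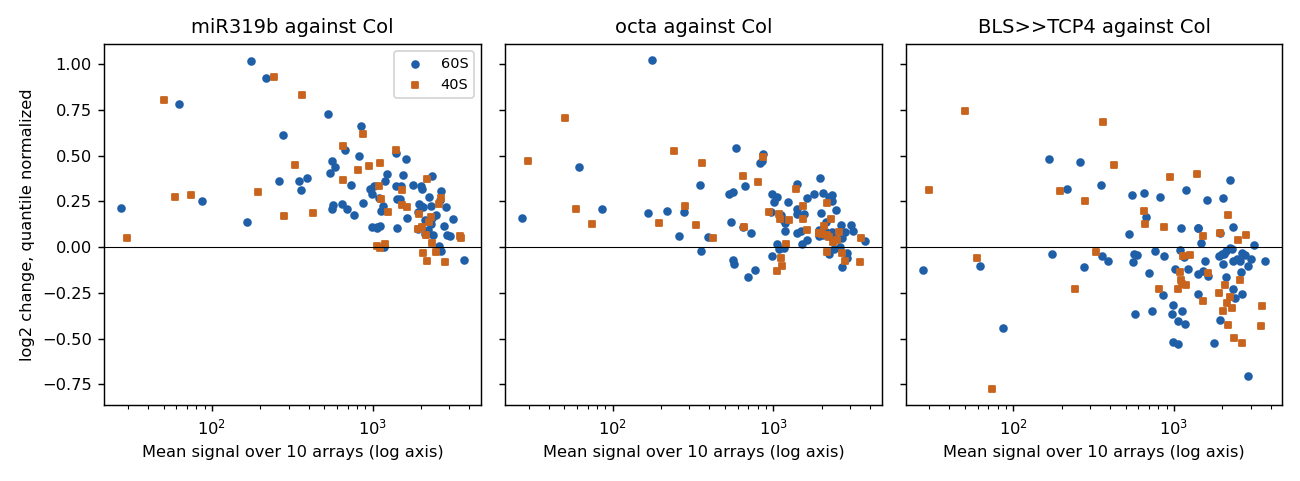
Log2 change against Col after quantile normalization of the 117 members (circles 60S, squares 40S) against their mean signal over 10 arrays on a log axis, for miR319b, octa and BLS>>TCP4. Above 0 lie 110 of the 117 points for miR319b, 97 for octa and 36 for BLS>>TCP4.

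The stalk, the flexible arm through which the large subunit receives translation factors, was covered by 12 members: 3 genes for its base protein P0, 3 for P1, 4 for P2 and 2 for P3, a form found in plants. All 12 had a positive change in miR319b, from 0.10 to 0.68, but only AT1G01100 was called. In BLS>>TCP4, 9 of the 12 were called higher as deposited, where 17.3% of all probe sets were, and those not called were the P1 gene AT4G00810 (0.41, adjusted p = 0.0530), the P3 gene AT4G25890 (0.32, adjusted p = 0.260) and the dim P2 gene AT3G28500 (-0.04, adjusted p = 0.926). The P0 gene AT3G09200 measured 3082 and 3309 on the Col arrays, 3013 and 3283 for miR-3TCP, 3232 and 3953 for miR319b, 3316 and 2901 for octa and 5745 and 5252 for BLS>>TCP4. Its miR319b arrays overlapped those of Col, and only the BLS>>TCP4 pair stood apart (0.78 ± 0.12, adjusted p = 0.00141; -0.08 after quantile normalization). AT4G25890 had the largest stalk difference in miR319b, 605 and 825 against 460.0 and 414 in Col (0.68 ± 0.20, adjusted p = 0.0828), while the other P3 gene, AT5G57290, differed by 0.27 ± 0.13. Only AT2G27710 and AT2G40010 of the 12 were called in BLS>>TCP4 after quantile normalization, when 8.9% of all probe sets were called higher. The remaining stalk genes, AT3G11250 (P0), AT5G47700 (P1) and AT2G27720 (P2), measured 0.30, 0.28 and 0.44 in miR319b and 0.54, 0.55 and 0.54 in BLS>>TCP4, where each was called.

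The 2 subunits had close medians in every group. Against Col, the medians of 60S and 40S members were 0.06 and 0.06 for miR-3TCP, 0.30 and 0.28 for miR319b, -0.01 and -0.03 for octa, and 0.43 and 0.40 for BLS>>TCP4. On single arrays as deposited, the 60S median minus the 40S median, each relative to Col, was -0.01 and 0.01 in Col. It was 4.9e-05 and 0.02 for miR-3TCP, 0.01 and 0.02 for miR319b, 0.02 and 0.04 for octa, and 0.06 and 0.05 for BLS>>TCP4. The octa and BLS>>TCP4 pairs lay above both Col arrays. With each array left out in turn, the subunit difference against Col crossed 0 in both, from -0.010 to 0.037 and from -0.017 to 0.076. Quantile normalization gave 0.01 and 0.08 in BLS>>TCP4 and -0.01 and 0.03 in octa, so the octa pair then overlapped Col. Calls fell on 7 of 75 60S and 1 of 42 40S members in miR319b (3.8% of all probe sets), and on 40 of 75 and 19 of 42 in BLS>>TCP4 (25.9%). After quantile normalization they fell on 4 and 0 members in miR319b (4.24% of all probe sets), and on 8 60S members (2 higher, 6 lower) and 6 40S members (2 higher, 4 lower) in BLS>>TCP4 (18.6%). As shares of array signal, 60S members held 2.65% and 2.73% in Col and 3.20% and 3.50% in miR319b, and 40S members 1.52% and 1.51% in Col and 1.78% and 1.90% in miR319b.

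By protein family, all 56 family medians were positive in miR319b and 54 in BLS>>TCP4, with 47 in miR-3TCP and 26 in octa. Of 40 families with several members, 38 had only positive changes in miR319b, the exceptions being the S4 and S14 families with 1 member each just below 0, at -0.01. In BLS>>TCP4 this held for 28 families. In the comparison of octa with miR319b 37 of 40 families had only negative differences as deposited, and 24 did after quantile normalization. After quantile normalization 53 family medians were positive in miR319b, 53 in octa, 47 in miR-3TCP and 18 in BLS>>TCP4, and 36 and 2 of the 40 families had only positive changes in miR319b and BLS>>TCP4. Members of a family share sequence, so these counts are not of independent genes.

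**Figure D4:**
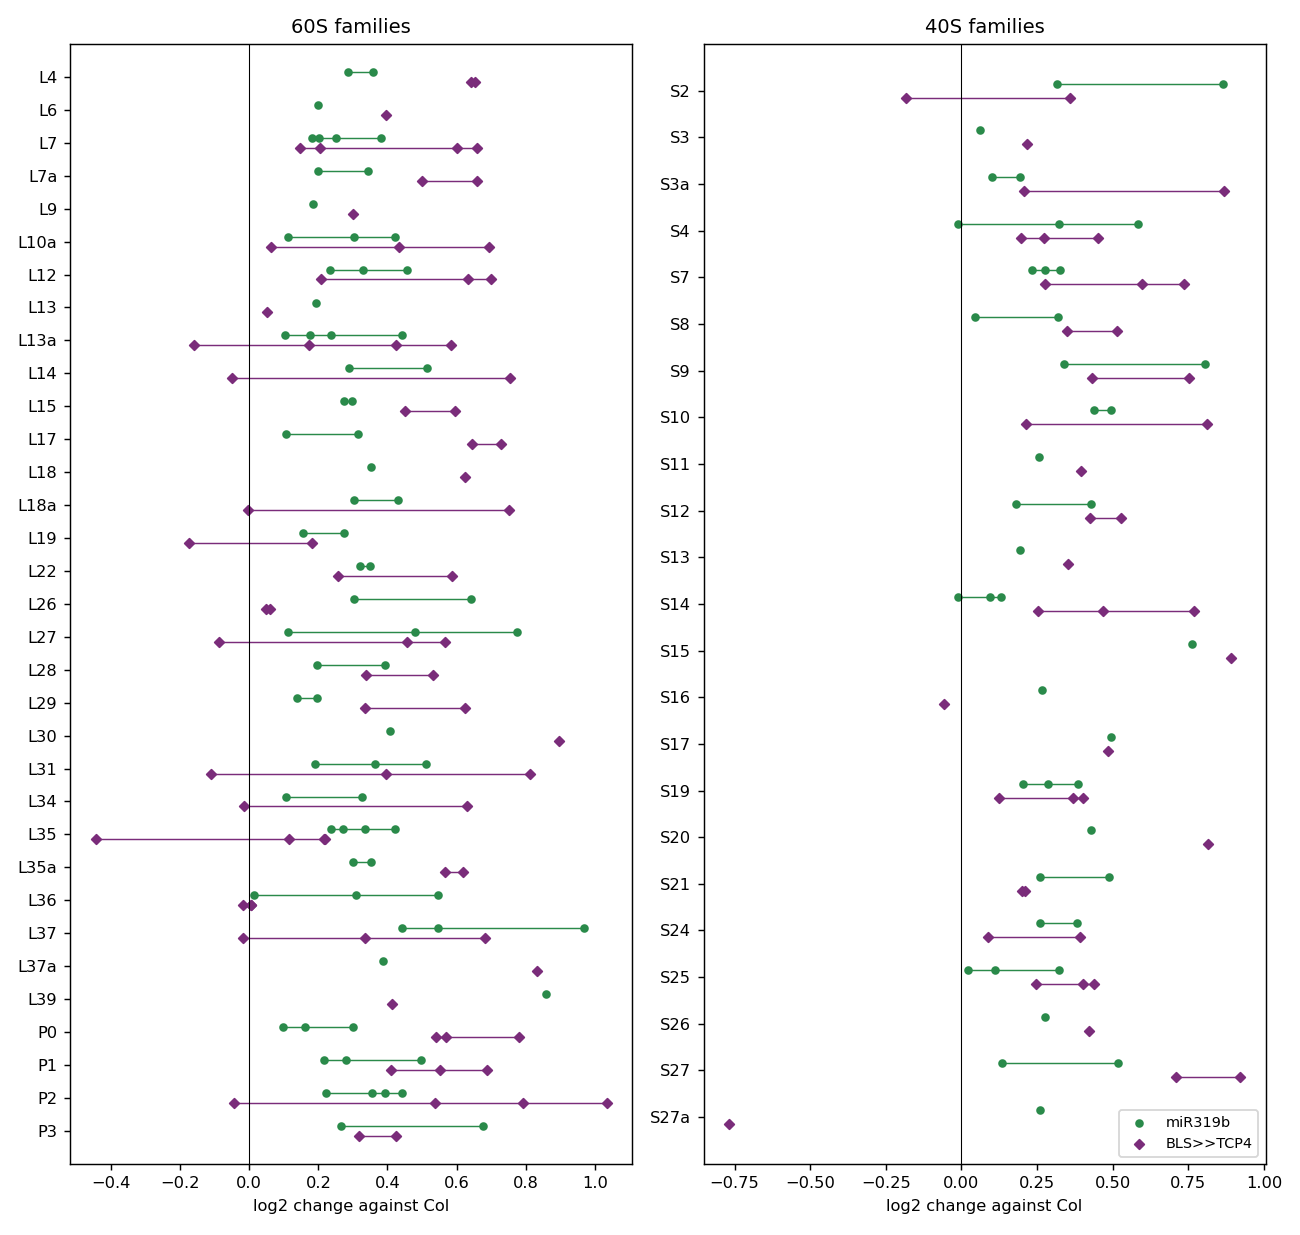
Log2 change against Col, as deposited, of each member by protein family (60S left, 40S right), for miR319b (green circles) and BLS>>TCP4 (purple diamonds); lines join members of a family. Only 2 green points lie below 0, at -0.01 (S4 and S14), while purple points lie on both sides of 0 within 12 of the 40 families with several members.

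As deposited, the differences between paralogues were widest in BLS>>TCP4, and so were the changes of all probe sets tested. The standard deviation of all 13648 changes against Col was 0.20, 0.37 and 0.31 in miR-3TCP, miR319b and octa and 0.57 in BLS>>TCP4. Pairs of other probe sets were not compared. The values below therefore cannot tell paralogue differences from a wider spread of the whole array. Over the 86 pairs within families, the median absolute difference between the 2 genes' changes was 0.11, 0.15 and 0.17 in miR-3TCP, miR319b and octa and 0.28 in BLS>>TCP4. Pairs that differed by at least 0.5 without overlap of the arrays numbered 1, 5, 6 and 21 of 86 in the same order. After quantile normalization the medians were 0.12, 0.15, 0.16 and 0.22, and those pairs numbered 1, 8, 6 and 7, so the larger count in BLS>>TCP4 did not hold under that scaling. How far near-identical transcripts bind each other's probes was not tested, and the larger spread between the BLS>>TCP4 arrays moves with these counts.

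Of the 8 pairs that differed most, 5 were in BLS>>TCP4. In each of these the brighter gene had the higher change. Bright probe sets that are no members also lay higher there as deposited, at medians of 0.27 and 0.33 on the BLS>>TCP4 arrays. The part of signal level in these differences was not tested. In L31, AT5G56710 rose from 1254 and 1251 in Col to 2277 and 2143 (0.81 ± 0.11, adjusted p = 0.00100), while AT2G19740 measured 584 and 587 and 558 and 523 (-0.11 ± 0.15, adjusted p = 0.621). AT2G19740 minus AT5G56710 was, relative to its Col mean, -0.92 on each BLS>>TCP4 array, against -0.01 and 0.01 in Col, and -0.62 after quantile normalization. In L14, AT4G27090 rose by 0.75 ± 0.11 (adjusted p = 0.00128) to 2914 and 3287, and AT2G20450 stood at 715 and 629 against 692 and 699 in Col (-0.05 ± 0.16, not called), and AT2G20450 minus AT4G27090 was -0.80 (-0.46 after quantile normalization). In L18a the gene that rose was AT2G34480, from 2435 and 2618 to 4333 and 4185 (0.75 ± 0.10, adjusted p = 0.000620), and AT3G14600, which had risen in miR319b, stood at 1574 and 1675 against 1587 and 1672 in Col. That pair differed by 0.76, and by 0.46 after quantile normalization, without overlap under either scaling. After quantile normalization none of the 3 genes that rose was called, at 0.26, 0.11 and -0.07, and AT3G14600 was called lower, at -0.52 (adjusted p = 0.00645). The remaining 2 pairs were in P2 and both held the dim AT3G28500, whose BLS>>TCP4 arrays measured 13.8 and 34.5: AT2G27710 minus AT3G28500 was 1.08 (0.49 after quantile normalization, when the arrays overlapped), and AT3G28500 minus AT3G44590 was -0.84 (-0.43).

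The other 3 pairs were in octa and held the dim genes already described. In each the dimmer gene had the higher change, and bright probe sets that are no members lay lower in octa as deposited. Their medians were -0.13 and -0.14 on the octa arrays. The part of signal level was again not tested. AT1G15250 minus its L37 paralogues AT1G52300 and AT3G16080 was 1.05 and 1.01 (1.08 and 0.95 after quantile normalization), and those measured 2129 and 2328 and 1161 and 1066 in octa, all below Col. In BLS>>TCP4 the same comparison with AT1G52300 went the other way, at -0.32 and -1.08 on the 2 arrays as deposited, a mean of -0.70 that became 0.067, with overlap, after quantile normalization. In S9, AT5G15200 minus AT5G39850 was -0.84 (-0.79 after quantile normalization), with 2994 and 2795 for AT5G15200 in octa.

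**Figure D5:**
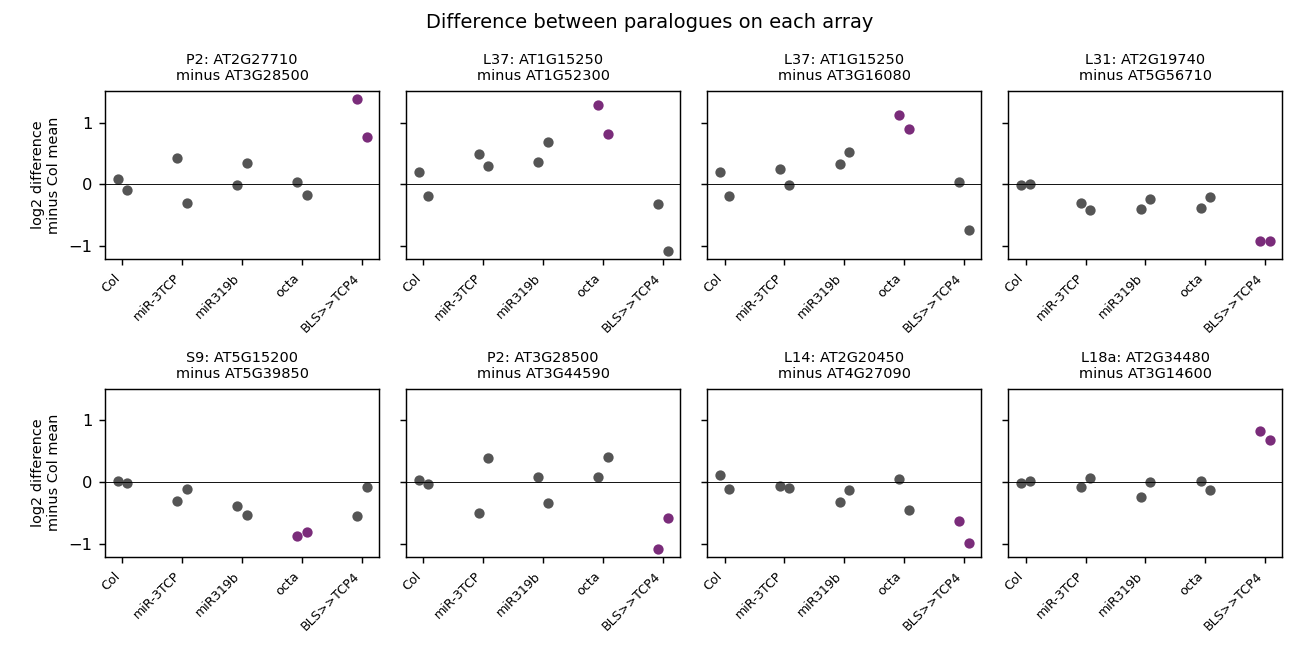
Difference in log2(signal + 16) between paralogues on each of the 10 arrays, relative to its mean in the 2 Col arrays, for the 8 pairs that differed most from Col without overlap; purple points mark the group in which the pair was chosen. Those pairs were picked for this difference, so the plot is a description, and in L31 the 2 BLS>>TCP4 points coincide near -0.92.

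Of 23 ribosomal protein genes with a described leaf or growth phenotype, 7 could be tested. PGY1 (AT2G27530), an L10a gene whose mutants enhance polarity defects of the leaf, measured 1504 and 1669 on the Col arrays, 1799 and 1852 for miR-3TCP, 1877 and 2042 for miR319b, 1891 and 1719 for octa and 2431 and 2721 for BLS>>TCP4. All 8 arrays of the altered groups exceeded both Col arrays, and only BLS>>TCP4 was called (0.69 ± 0.11, adjusted p = 0.00176; 0.08 and not called after quantile normalization). The L4 genes AT3G09630 and AT5G02870, for a protein that reaches into the exit tunnel, rose by 0.64 and 0.65 in BLS>>TCP4, the L7 gene AT2G01250 by 0.66 and the L28 gene AT2G19730 by 0.53, none of them called after quantile normalization. The S21 genes AT3G53890 and AT5G27700 measured 0.21 and 0.20 and were not called. None of the 7 was called in another comparison as deposited. Their medians were 0.06 for miR-3TCP, 0.29 for miR319b, -0.06 for octa and 0.64 for BLS>>TCP4 (-0.08 after quantile normalization, when AT5G27700 was called lower at -0.52), near those of all members in the first 3 groups.

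The 5 members of highest mean signal were AT3G09200 (P0), AT5G20290 (S8), AT5G15200 (S9), AT3G60245 (L37a) and AT2G34480 (L18a). None was called in miR319b (3.8% of all probe sets), where their differences ran from 0.16 to 0.39. All 5 were called higher in BLS>>TCP4 as deposited, by 0.43 to 0.83, where 17.3% of all probe sets were called higher. Bright probe sets that are no members also lay above Col there, at medians of 0.27 and 0.33 on the 2 BLS>>TCP4 arrays. After quantile normalization their changes in BLS>>TCP4 ran from -0.43 to 0.01.

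Other genes of ribosome production and use were less well covered. Of 35 ribosome biogenesis factors, 13 were tested, with medians of 0.27 for miR-3TCP, 0.42 for miR319b, 0.32 for octa and 0.09 for BLS>>TCP4. The 1 call as deposited was AT3G03920, 502 and 521 in Col and 1079 and 813 in BLS>>TCP4 (0.85 ± 0.17, adjusted p = 0.00644), a gene related to yeast GAR1, a nucleolar protein that takes part in modifying ribosomal RNA. After quantile normalization it was not called in BLS>>TCP4 (0.53, adjusted p = 0.0537) and was called in miR319b (0.76, adjusted p = 0.0385), and the list's BLS>>TCP4 median was -0.04. In octa the list's median was positive as deposited, while that of the ribosomal proteins was -0.02. After quantile normalization both were positive, at 0.47 for the list and 0.17 and 0.08 for the members on the octa arrays. As deposited, bright probe sets that are no members lay lower in octa, at medians of -0.13 and -0.14 on its arrays. Of 22 translation factors and ribosome-associated proteins, 4 were tested. AT5G19510, a gene for a subunit of elongation factor eEF1B, rose in miR319b (0.52 ± 0.09, adjusted p = 0.0209) and in BLS>>TCP4 (0.65 ± 0.09, adjusted p = 0.00102) as deposited. After quantile normalization neither was called, at 0.31 (adjusted p = 0.0729) and, with the sign turned, -0.10 (adjusted p = 0.439). AT5G12110, another eEF1B gene, and EIF4A-2, for an RNA helicase of translation initiation, rose in BLS>>TCP4 by 1.60 ± 0.27 and 1.03 ± 0.19 (adjusted p = 0.00278 and 0.00398), and both were also called after quantile normalization, at 1.52 and 0.64. In the TOR pathway, the kinase pathway known to promote ribosome production, RAPTOR1 and RAPTOR2 could be tested of 7 genes, and RAPTOR2 fell in BLS>>TCP4 as deposited (-0.46 ± 0.15, adjusted p = 0.0450), a call that quantile normalization ended (-0.46, adjusted p = 0.0537).

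Markers of other kinds moved with some groups. The 2 proliferation genes tested, the mitotic kinase genes AUR1 and AUR2, were called lower in miR319b and in octa, and their summed signal was 590 and 663 in Col, 652 and 653 for miR-3TCP, 301 and 270 for miR319b, 316 and 313 for octa, and 669 and 805 for BLS>>TCP4. In miR319b the 8 called members were thus higher while both kinases were lower, and in octa both kinases were lower with no member called. The 2 root markers tested summed to between 1843 and 2152 on the 8 Col-accession arrays and to 1038 and 1557 in BLS>>TCP4. Most of that signal was PYK10, a beta-glucosidase gene of roots and seedlings, with means of 1901 in Col and 1250 in BLS>>TCP4. In BLS>>TCP4, PYK10 fell by 0.63 ± 0.17 (adjusted p = 0.0203) as deposited and stood at -1.14 (adjusted p = 0.000812) after quantile normalization. The other marker, AT1G12080, averaged 43.4 in Col and 47.6 in BLS>>TCP4 and was not called (0.18, adjusted p = 0.753). Photosynthesis markers summed to between 7389 and 7494 in miR319b and to 6478 and 6686 in octa, against 7434 and 7796 in Col. Their part in the ribosomal protein results was not tested.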

How the data were processed

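RNA of vegetative apices was measured on 10 Affymetrix arrays, 2 in each of 5 groups, grouped by their labels. The values are linear intensities deposited by the authors, and the submitters' processing notes name MAS5; its version and settings and the annotation build are not stated in the labels. Precision is limited by the number of arrays. Of 22810 probe sets, 64 controls were left out; 13513 of the rest list 1 gene in the platform annotation, 503 several and 8730 none. The deposited intensities were turned here into log2(value + 16), and probe sets with a mean at or above the 40th percentile (13648) entered 1 linear model with a mean per group (limma 3.58.1 in R 4.3.3, trend, 5 residual degrees of freedom, Benjamini-Hochberg). Scripts were tested on simulated data.

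Of the 230 genes in the family table, 39 have a ribosomal protein name in the RefSeq gene table, 36 of them in the same family. None of these 39 genes is a member, so this comparison checks no member's family. The members and lists were chosen with earlier results of these data known. Named genes are the called members of largest change without overlap (up to 10 a direction, or 3 where none is called), the tested genes of the phenotype and stalk lists, the 5 of highest signal, the 8 most different paralogue pairs, up to 4 called genes of each other list and the gene on each side of the threshold.

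Alternatives were quantile normalization, median centring, a pseudocount of 1 or 64, no filter or the 60th percentile, only the groups compared, the replicate number as a block, each array left out and, added after seeing the data, the 8 arrays of the Col accession alone. Same-numbered replicates had deviations that correlated at -0.40 to 0.45 between groups, without a common sign. The numbers were not used as pairs in the main model, and whether particular groups shared a batch was not tested. The targeted TCP genes were not analysed here.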

Additional observations from a re-analysis of the deposited data

Results flagged for a closer look

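The member median that went with the miR-3TCP construct was lower in the presence of miR319b and close to Col in its absence. Both miR-3TCP arrays had a member median only slightly above both Col arrays, at 0.10 and 0.03 against -0.02 and 0.02. Both octa arrays, at 0.02 and -0.06, lay below both miR319b arrays, at 0.22 and 0.39. After quantile normalization the octa arrays were nearer, at 0.17 and 0.08 against 0.19 and 0.29, and lay above both Col arrays. As deposited, bright probe sets that are no members also lay lower in octa, at -0.13 and -0.14, than in miR319b, at -0.02 and -0.01. The median over the 117 members of the difference octa minus miR319b, less the difference miR-3TCP minus Col, was -0.38 on the log2 scale, and it was negative for 114 members. That median itself was not tested. Gene by gene, limma called 0 of the 117 members in this contrast, which was added after seeing the data, and 48 had an unadjusted p under 0.05, where 0.00733% of all probe sets tested were called and 7.14% had such a p. After quantile normalization the median was -0.19, with 20 members positive, 0 called and 14 at that p, where 6.7% of all were. Age cannot be told apart from genotype here, since octa was taken at 18 DAS, miR319b at 17 DAS and the other 2 groups at 14 DAS.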

How the results depend on the processing

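Called members in miR319b minus Col were 8, against 0 with no filter, 13 with the 60th percentile filter, 4 after quantile normalization, 4 with only the 2 groups compared and 25 with the 8 arrays of the Col accession alone. For octa minus Col, limma called 1 with only the 2 groups compared and 2 with those 8 arrays, against 0. For BLS>>TCP4 minus Col the 59 calls became 14 after quantile normalization (4 higher, 10 lower) and 33 with only the 2 groups compared. For miR319b minus miR-3TCP the 4 calls became 0 with no filter, 0 after quantile normalization and 14 with those 8 arrays. As deposited and after quantile normalization, the shares of all probe sets called were 3.8% and 4.24% in miR319b minus Col. They were 25.9% and 18.6% in BLS>>TCP4 minus Col and 3.72% and 4.21% in miR319b minus miR-3TCP. Shares in the other settings, or with arrays left out, are not given here, so those counts cannot tell a change of the members from one of the whole array. Fewer or more residual arrays and probe sets enter in these settings; otherwise the cause was not tested. Quantile normalization moved the member median to 0.12 in octa minus Col, -0.076 in BLS>>TCP4 minus Col, -0.10 in octa minus miR319b, 0.044 in octa minus miR-3TCP and 0.15 in miR319b minus miR-3TCP, and it reversed AT5G15200 in BLS>>TCP4, to -0.43.

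The 60S minus 40S difference of medians stayed small: with no filter it was 0.030 in miR-3TCP, 0.040 in miR319b and 0.030 in octa. In BLS>>TCP4 it was 0.021 and 0.053 with pseudocounts of 1 and 64, 0.048 with the 60th percentile filter and 0.074 after quantile normalization. In octa minus miR319b it was -0.016 with the 60th percentile filter and 0.010 after quantile normalization, in miR319b minus Col 0.013 after quantile normalization, and in miR319b minus miR-3TCP 0.032 with a pseudocount of 64. The P2 pair AT2G27710 and AT3G28500 differed by 0.49 after quantile normalization.

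With each array left out in turn, calls ranged from 0 to 25 in miR319b, 0 to 2 in octa, 30 to 67 in BLS>>TCP4 and 0 to 15 in miR319b minus miR-3TCP, and were 0 in the other comparisons. Medians ranged from 0.031 to 0.104 in miR-3TCP, 0.221 to 0.393 in miR319b, -0.064 to 0.022 in octa, 0.386 to 0.477 in BLS>>TCP4, -0.413 to -0.232 in octa minus miR319b, -0.118 to -0.028 in octa minus miR-3TCP and 0.153 to 0.325 in miR319b minus miR-3TCP. The subunit difference ranged, in the same order, from -0.024 to 0.036, -0.017 to 0.031, -0.010 to 0.037, -0.017 to 0.076, -0.059 to -0.018, -0.023 to 0.019 and -0.031 to 0.066. The 3 widest paralogue differences ranged from 0.76 to 1.39 (P2), 0.81 to 1.28 and 0.82 to 1.21 (both L37).

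With the replicate number as a block, calls were 0 in miR-3TCP, 6 in miR319b, 0 in octa, 57 in BLS>>TCP4, 0 in octa minus miR319b, 0 in octa minus miR-3TCP and 3 in miR319b minus miR-3TCP, all within 1.5 times the unblocked counts.

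The files give no detection call, so how far the dimmest members stand above background is unknown here.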

Other observations

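The 15 members outside the brightest 2730 probe sets, grouped after their values were seen, are set here beside the 102 bright ones. In octa minus Col, 14 of the 15 were positive with a median of 0.17, against 36 of 102 with a median of -0.04, where 41% of all probe sets were positive. After quantile normalization 15 of 15 were positive (median 0.21), against 82 of 102 (0.095), where 52.1% of all were. As deposited, bright probe sets that are no members also lay lower in octa, at medians of -0.13 and -0.14 on its 2 arrays against -0.05 and -0.05 over all. In BLS>>TCP4 minus Col as deposited, 7 of the 15 were positive with a median of -0.02, against 96 of 102 with a median of 0.43. After quantile normalization the medians in BLS>>TCP4 were -0.04 and -0.08, with 7 of 15 and 29 of 102 positive. As deposited, bright probe sets that are no members also lay higher in BLS>>TCP4, at a median of 0.29 against 0.10 over all. No test was made of this grouping.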
